A study of Homo sapiens with 27 samples.

Results

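Expression was examined for 10 genes of 2 chromosome segments that are often amplified in breast cancer: ZNF703, NSD3, DDHD2, LSM1, ASH2L and BAG4 of 8p11, and FADD, CTTN, PPFIA1 and ANO1 of 11q13. The genes were taken by name as established members of these amplicons, with earlier results of these data known. They are 10 of the 60619 genes in the count table, 6 at 8p11 and 4 at 11q13. Each was found once by its Ensembl ID and had counts in every library. In bulk RNA, fewer cells that express a gene and less RNA per cell cannot be told apart. Copy number was not measured here, so the values are RNA levels only.

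RNA-Seq was done on MDA-MB-134VI (MM134) and SUM44PE (SUM44), human estrogen receptor-positive cell lines of invasive lobular carcinoma, a breast cancer type defined by loss of the adhesion protein E-cadherin. The long-term estrogen-deprived (LTED) variants grew out of parental cells kept in medium whose serum had been stripped of steroid hormones with charcoal, and they model tumors that no longer respond to aromatase inhibitors. SUM44 gave 2 variants (LTED-A and LTED-B) and MM134 gave 4 (LTED-A, LTED-B, LTED-D, LTED-E). There were 9 groups of 3 libraries, the other groups being MM134 parental cells, SUM44PE, and SUM44F, a line derived from SUM44PE by growth in another medium with serum. SUM44F, which responds more strongly to estradiol, was the parent of the SUM44 variants. All groups shared estrogen-depleted medium at harvest, into which the parental cells had been moved only 3 days earlier, so the parental values are those of briefly deprived cells. The replicates were wells, each variant is 1 derivation, and the p-values speak for these cultures only. In SUM44 LTED-A, replicates 2 and 3 were closer to each other than sampling noise allows between separate libraries. They were counted as 1 sample, which leaves n = 2 for that variant.

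Library totals ran from 28583554 to 134882175 counts. All 8 luminal epithelial markers were at 1 CPM (counts scaled to the same library total) or more in every group, and CDH1, the E-cadherin gene whose loss defines the lobular type, was at 8.35 to 24.6 CPM. Of 6 fibroblast markers, the summed level was 361 CPM in SUM44F replicate 1 against 9.47 and 8.39 CPM in the other SUM44F libraries, with COL3A1 at 134.5 CPM and LUM at 57.2 CPM. COL3A1 was also above 5 CPM in MM134 parental replicate 3 (5.54 CPM) and MM134 LTED-D replicate 2 (5.22 CPM). The summed level was highest in SUM44F for 5 endothelial markers, at 26.9 to 47.1 CPM, and for 8 immune markers, at 39.0 to 53.7 CPM. In the SUM44F libraries PECAM1 was at 21.7 to 27.3 CPM, ITGAM at 36.9 to 45.2 CPM and PTPRC at most at 2.60 CPM. The part of these markers in the results was not tested, and values without the libraries concerned are given where they change a result.

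In an amplicon a stretch of chromosome is copied many times, and genes inside it are often, though not always, transcribed at a higher level. The short-arm segment lies beside FGFR1, a growth factor receptor gene, and the long-arm segment beside CCND1, which encodes cyclin D1, the partner of CDK4 and CDK6 at the entry to the cell cycle. Both segments are common in estrogen receptor-positive tumors and are often gained together. ANO1 encodes a calcium-activated chloride channel of the cell membrane, FADD the adaptor that links death receptors to caspase-8, PPFIA1 the scaffold protein liprin-alpha-1 of cell edges and adhesions, and CTTN cortactin, which binds branched actin filaments.

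The start regions of the long-arm genes are shown because these 4 genes stood together in the difference between the cell lines. In LTED variants against parental cells, ANO1 alone among them passed both thresholds defined below. RefSeq on GRCh38.p14 gave a window of 250 bases before to 50 bases after the start for 3 of them, all on the plus strand of chromosome 11. The windows were chr11:70203046-70203345 for FADD, chr11:70270440-70270739 for PPFIA1 and chr11:69985657-69985956 for ANO1, and CTTN was not matched. Capitals mark GC boxes (GGGCGG or its complement CCGCCC), the letters read by the SP family of transcription factors.
FADD: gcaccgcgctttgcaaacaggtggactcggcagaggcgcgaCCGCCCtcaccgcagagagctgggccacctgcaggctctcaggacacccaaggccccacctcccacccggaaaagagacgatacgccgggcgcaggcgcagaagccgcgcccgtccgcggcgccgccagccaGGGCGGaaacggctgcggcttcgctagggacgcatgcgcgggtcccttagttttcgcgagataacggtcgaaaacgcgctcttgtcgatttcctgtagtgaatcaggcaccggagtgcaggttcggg
PPFIA1: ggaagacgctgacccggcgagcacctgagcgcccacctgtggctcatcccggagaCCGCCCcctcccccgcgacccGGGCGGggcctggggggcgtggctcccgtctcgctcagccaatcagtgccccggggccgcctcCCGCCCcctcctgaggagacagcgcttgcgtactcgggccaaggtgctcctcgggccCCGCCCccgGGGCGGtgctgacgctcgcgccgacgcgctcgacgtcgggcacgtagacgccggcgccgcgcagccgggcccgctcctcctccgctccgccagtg
ANO1: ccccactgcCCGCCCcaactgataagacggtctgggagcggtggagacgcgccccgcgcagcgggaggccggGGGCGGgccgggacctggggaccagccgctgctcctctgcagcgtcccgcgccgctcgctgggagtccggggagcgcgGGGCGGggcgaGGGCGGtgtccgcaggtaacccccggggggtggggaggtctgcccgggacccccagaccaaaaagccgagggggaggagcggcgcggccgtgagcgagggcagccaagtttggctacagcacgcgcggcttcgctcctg

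The FADD window held 2 GC boxes, the PPFIA1 window 5 and the ANO1 window 4, and 45.0% of the 35116 RefSeq promoter windows held at least 1. Their GC content was 66.7% (FADD), 77.7% (PPFIA1) and 76.0% (ANO1) beside a median of 58.7% over all windows. No window held the full estrogen response element, searched as GGTCA and TGACC separated by any 3 bases, which 0.0570% of all windows held. A single arm of it, GGTCA or TGACC, occurred once, in PPFIA1, and in 37.4% of all windows. The E2F core site, TTTCGCGC or TTTGGCGC on either strand, was in none of them and in 1.15% of all windows. A match describes letters in a window and shows no binding.

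On hg38 with GENCODE v44, the 11q13 genes all lay on the plus strand of chromosome 11, ANO1 (ENSG00000131620) at 69985907 to 70189530, FADD (ENSG00000168040) at 70203296 to 70207390, PPFIA1 (ENSG00000131626) at 70270690 to 70385312 and CTTN (ENSG00000085733) at 70398404 to 70436584. The 8p11 genes lay on chromosome 8 between 37695782 and 38382272 in the order ZNF703 (ENSG00000183779), ASH2L (ENSG00000129691), LSM1 (ENSG00000175324), BAG4 (ENSG00000156735), DDHD2 (ENSG00000085788) and NSD3 (ENSG00000147548). Among the 8p11 genes, ZNF703 encodes a zinc finger co-repressor of luminal cells, NSD3 a histone H3 lysine methyltransferase, ASH2L a core subunit of the MLL-type methyltransferase complexes, LSM1 a subunit of the ring that leads mRNA to decapping and decay, BAG4 a co-chaperone of HSP70 that holds death receptors silent, and DDHD2 a lipase. LSM1 and BAG4 overlap by 198 bases on opposite strands, DDHD2 and NSD3 by 5855 bases, DDHD2 and PLPP5 by 6114 bases, and ASH2L and STAR by 1377 bases. The library kit keeps strand, but the strand setting of the counting is not given in the sources used here, so reads of such pairs may have been shared between them.

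All 10 genes were transcribed in both cell lines, at levels that ran from 1.12 CPM for ANO1 in SUM44PE to 2207 CPM for CTTN in MM134 LTED-E (group means). The ratio of the highest to the lowest group mean was 52.4 for ANO1 and 10.7 for ZNF703. It was 2.77 for CTTN, 2.64 for PPFIA1, 2.46 for FADD and 2.31 for DDHD2. The smallest ratios were those of NSD3 (1.74), LSM1 (1.57), BAG4 (1.45) and ASH2L (1.37). ANO1 and ZNF703 thus varied most, ANO1 with its highest level in an MM134 variant and ZNF703 in a SUM44 variant.

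**Figure D1:**
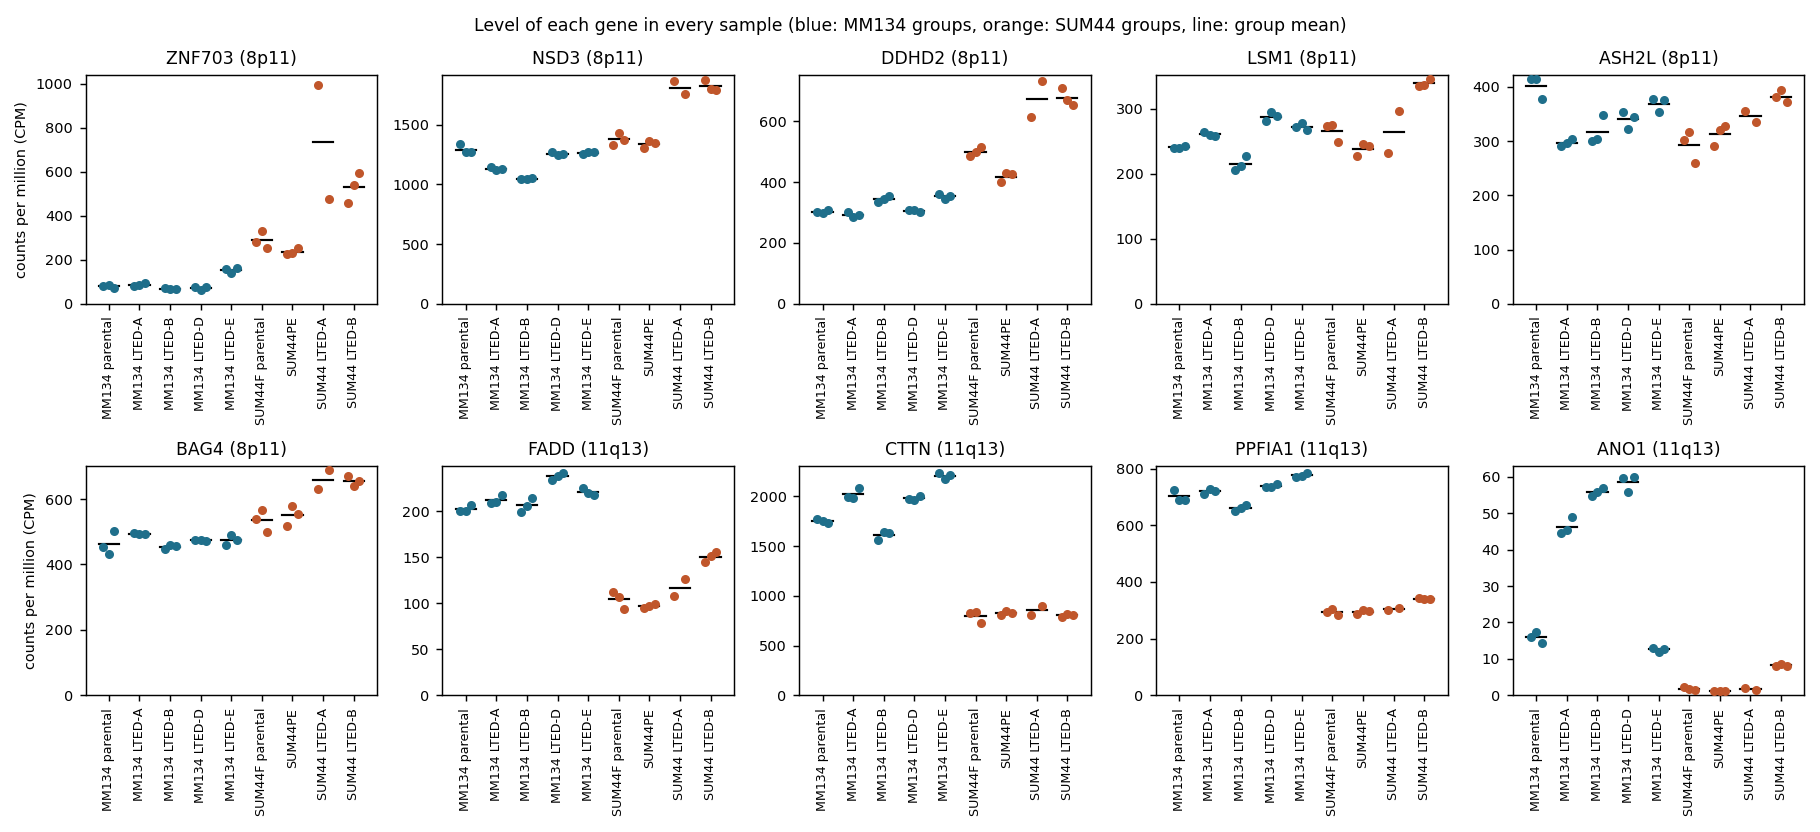
Each panel plots 1 gene, with the 9 groups on the x axis and CPM on a linear y axis from 0. Points are samples and lines are group means. FADD, CTTN, PPFIA1 and ANO1 stand higher in all MM134 groups than in all SUM44 groups. The group means of ANO1 that come nearest are those of MM134 LTED-E (12.6 CPM) and SUM44 LTED-B (8.23 CPM).

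Levels were compared between genes only per kilobase of exon. CTTN was the most highly expressed of the 10 in MM134 parental cells, at 252.2 CPM per kilobase, followed by LSM1 at 143.8 and FADD at 118.3 CPM per kilobase. In SUM44F the order began with LSM1 at 158.3 CPM per kilobase, and CTTN stood at 114.8 CPM per kilobase. ANO1 was last in every group, between 0.178 CPM per kilobase in SUM44PE and 9.33 CPM per kilobase in MM134 LTED-D. ZNF703 was ninth of the 10 in MM134 parental cells (23.9 CPM per kilobase), 5th in SUM44F (87.2 CPM per kilobase) and 1st in SUM44 LTED-A (221.8 CPM per kilobase). That first place rests on replicate 1, at 299.9 CPM per kilobase, since in the sample of replicates 2 and 3 ZNF703 was at 143.8 and LSM1 at 177.4 CPM per kilobase. With the length of the longest annotated transcript in place of all exons, CTTN also stood 1st in SUM44F and ZNF703 stood 2nd in SUM44 LTED-A.

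The first question was whether these genes moved when MM134 cells became independent of estrogen. In the text below, a gene is called changed when it differed by over 1.5-fold at an adjusted p below 0.001 (edgeR quasi-likelihood test, Benjamini-Hochberg adjustment over all genes), and held when the whole 95% interval of its log2 fold change lay within 1.5-fold. In LTED-A, 1 of 10 genes was called (20.3% of all genes tested) and 9 were held (39.7% of all genes). In LTED-B, 1 was called (15.9% of all genes) and 9 were held (42.4%). In LTED-D, 1 was called (17.6%) and 9 were held (38.9%), and in LTED-E, 1 was called (19.0%) and 9 were held (39.9%). The called gene was ZNF703 in LTED-E and ANO1 in the other 3 variants. The median size of the log2 fold change over the 10 genes was 0.12, 0.17, 0.16 and 0.17 in the 4 variants, beside 0.34, 0.31, 0.35 and 0.33 over all genes tested. All 10 genes are well counted and the set of all genes includes weakly counted ones, whose intervals are wider, so this comparison is a description.

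ANO1, the chloride channel gene, was at 15.98, 17.34 and 14.25 CPM in the MM134 parental libraries. It was at 44.5, 45.4 and 48.8 CPM in LTED-A, at 54.7, 55.9 and 57.0 CPM in LTED-B and at 59.7, 55.8 and 60.1 CPM in LTED-D. In LTED-E it was at 13.1, 12 and 12.7 CPM. Every LTED-E library lay below all parental libraries, and every library of the other variants lay above them. The log2 fold change was 1.53 ± 0.055 (SE) in LTED-A (adjusted p = 2.70e-14), 1.82 ± 0.055 in LTED-B (adjusted p = 3.80e-15) and 1.89 ± 0.056 in LTED-D (adjusted p = 2.10e-15), that is 2.89-fold, 3.52-fold and 3.71-fold by edgeR. In LTED-E it was -0.33 ± 0.061 (adjusted p = 0.000153, edgeR), a difference beyond the spread of the wells that stayed within 1.5-fold.

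Some marker sums differed between MM134 parental cells and the variants, LTED-E included. The 6 basal or myoepithelial markers summed to 8.55 to 10 CPM in parental cells and to 11.1 to 12.5 CPM in LTED-E. In the variants where ANO1 rose they summed to 16.9 to 18.3 CPM (LTED-A), 15.6 to 18 CPM (LTED-B) and 22.1 to 24.4 CPM (LTED-D). Most of that was MYLK, the gene of a myosin kinase of contractile cells. MYLK was at 6.63 to 8 CPM in parental cells and up to 22.5 CPM in LTED-D. The defining keratin genes KRT5 and KRT14 stayed at or under 0.0696 CPM in every MM134 library. TP63 of the same list went the other way, from 0.351 to 0.486 CPM in parental cells to at most 0.249 CPM in the variants. The 8 immune markers summed to 0.701 to 1.46 CPM in parental cells and to 9.96 to 23.4 CPM over the 4 variants, LTED-E included. CD68 and ITGAM were the 2 immune markers at 1 CPM or more there, and the common leukocyte gene PTPRC was at most 0.365 CPM in any MM134 library. The 8 luminal markers summed to 4379 to 4403 CPM in parental cells and to 6676 to 8991 CPM in the variants. Single markers went both ways. ESR1 was lower than in parental libraries (350.5 to 372.3 CPM) in LTED-A (147.6 to 153.3) and LTED-E (261.9 to 266.5 CPM). ESR1 was higher in LTED-B (515.9 to 552.1) and LTED-D (460 to 473.1 CPM). GATA3 was lower in LTED-A and LTED-E and overlapped parental values in LTED-B and LTED-D. TFF1, KRT8, KRT18, KRT19 and EPCAM rose in all 4 variants, TFF1 from at most 4.32 to at least 540 CPM. The part of these markers in the ANO1 result was not tested.

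ZNF703, the luminal co-repressor gene, was at 81.9, 85.0 and 71.0 CPM in MM134 parental cells. In LTED-E it was at 159.2, 141.6 and 164.4 CPM. The LTED-E libraries all stood above the parental ones, with a log2 fold change of 0.98 ± 0.079 (SE, adjusted p = 4.75e-09, edgeR), or 1.97-fold. LTED-A, at 80.3, 85.2 and 97.1 CPM, and LTED-D, at 74.9, 62.7 and 76.5 CPM, overlapped the parental libraries. LTED-B, at 70.8, 68.6 and 65.9 CPM, lay just below them, with a log2 fold change of -0.21 ± 0.081 (adjusted p = 0.0411, edgeR). ZNF703 was thus called in the variant where ANO1 was not.

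ASH2L, the methyltransferase subunit gene, showed the largest difference among the genes held within 1.5-fold in MM134. It was at 413.6, 414.9 and 377.3 CPM in parental cells and at 290.2, 296.7 and 304.7 CPM in LTED-A. The log2 fold changes were -0.44 ± 0.049 in LTED-A (adjusted p = 2.91e-07), -0.34 ± 0.049 in LTED-B (adjusted p = 1.17e-05), -0.23 ± 0.049 in LTED-D (adjusted p = 0.000589) and -0.11 ± 0.049 in LTED-E (adjusted p = 0.0628, edgeR). LTED-E overlapped the parental libraries, and the other variants lay below them in every library. NSD3, the other chromatin enzyme gene, had log2 fold changes of -0.20 (LTED-A) and -0.30 (LTED-B), with adjusted p of 1.10e-06 and 5.20e-09 by edgeR, and of -0.03 and -0.02 in LTED-D and LTED-E.

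Among the other 8p11 genes, LSM1 had log2 fold changes, given for LTED-A first and then LTED-B, -D and -E, of 0.11, -0.16, 0.27 and 0.19. The parental libraries were at 240.1, 240.1 and 242.6 CPM, and all 3 libraries of each variant lay on 1 side of them, below in LTED-B and above in the others. DDHD2, the lipase gene, had values of -0.05, 0.19, 0.02 and 0.23 and stood above all parental libraries in LTED-B and LTED-E. BAG4, the co-chaperone gene, overlapped the parental libraries in all 4 variants and had log2 fold changes between -0.02 and 0.09, the narrowest range of the 10 genes. These differences were small but for several genes larger than the spread between wells.

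At 11q13, CTTN was at 1772, 1756 and 1728 CPM in MM134 parental cells and at 2233, 2171 and 2217 CPM in LTED-E. Its log2 fold changes were 0.20, -0.12, 0.19 and 0.34 in the same order of variants, and no variant's libraries overlapped the parental ones. FADD, the death receptor adaptor gene, had log2 fold changes of 0.06, 0.03, 0.25 and 0.14, with the parental libraries between 199.7 and 206.4 CPM and LTED-D at 234.0, 238.4 and 241.8 CPM. PPFIA1, the scaffold gene, had log2 fold changes of 0.03, -0.08, 0.09 and 0.16. CTTN, FADD and PPFIA1 therefore stayed within 1.5-fold of the parental level in all 4 variants, although ANO1, which lies beside FADD, rose 2.89-fold to 3.71-fold in 3 of them.

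**Figure D2:**
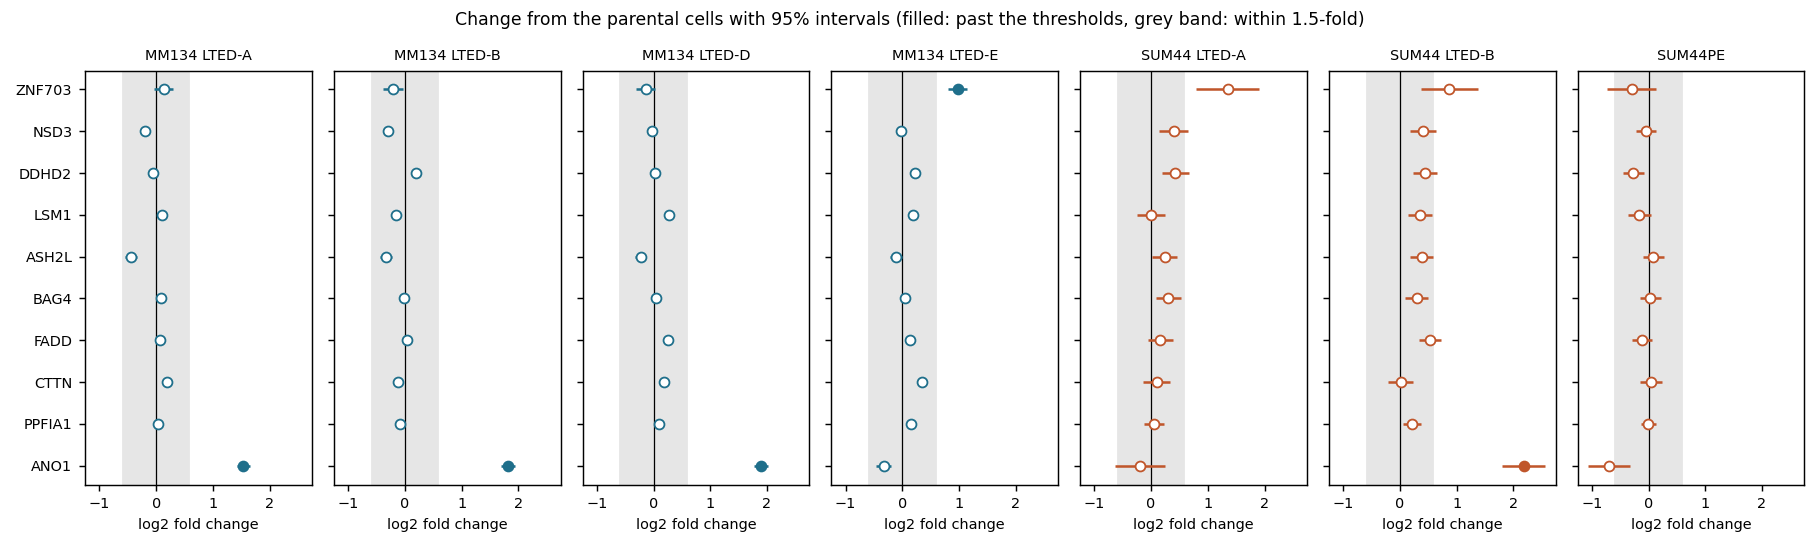
Log2 fold change (x axis) of each gene (y axis) from MM134 parental cells in 4 variants and from SUM44F in SUM44 LTED-A, SUM44 LTED-B and SUM44PE, with 95% intervals. The grey band is 1.5-fold either way and filled points passed both thresholds. ANO1 is filled in 3 MM134 variants and in SUM44 LTED-B, and ZNF703 in MM134 LTED-E, while the intervals of the SUM44 groups are wider.

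The same question was asked of SUM44. In SUM44 LTED-A, 0 of 10 genes were called (13.7% of all genes tested) and 6 were held within 1.5-fold (25.7% of all genes). By edgeR, 5 genes had an unadjusted p under 0.05 (ZNF703, NSD3, DDHD2, ASH2L and BAG4), a count given without the share over all genes. DESeq2 called 1 gene, ZNF703, beside 4538 of all 26834 genes tested. In SUM44 LTED-B, 1 gene was called (17.3% of all genes), ANO1, and 5 were held (25.3%). Held genes numbered 3 in LTED-B with RLE size factors, DESeq2 or a replicate block, and also without SUM44F replicate 1 or any 1 of the LTED-B replicates, and 2 without SUM44F replicate 2. The median size of the log2 fold change over the 10 genes was 0.22 in LTED-A and 0.39 in LTED-B, beside 0.40 and 0.46 over all genes tested.

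ANO1 was at 2.19, 1.78 and 1.502 CPM in SUM44F and at 8.16, 8.45 and 8.09 CPM in SUM44 LTED-B. In SUM44 LTED-A it was at 1.85 CPM in replicate 1 and 1.35 CPM in the sample made of replicates 2 and 3. The LTED-B libraries all lay above SUM44F, and LTED-A overlapped it. The log2 fold change was 2.18 ± 0.17 (SE, adjusted p = 3.07e-06, edgeR) in LTED-B, or 4.54-fold, and -0.20 ± 0.20 (adjusted p = 0.482, edgeR) in LTED-A. The counts behind ANO1 in SUM44F were as few as 91 in a library. Without SUM44F replicate 1, the library with the fibroblast collagens, the LTED-B value was 2.33.

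ZNF703 was at 283.1, 329.7 and 254.8 CPM in SUM44F. In SUM44 LTED-A it was at 994.4 CPM in replicate 1 and 476.7 CPM in replicates 2 and 3 together, and in LTED-B at 456.8, 539.7 and 592.5 CPM. All samples of both variants stood above all SUM44F libraries. The log2 fold change was 1.35 ± 0.25 (SE, adjusted p = 0.00158) in LTED-A and 0.87 ± 0.23 (adjusted p = 0.00956) in LTED-B, neither past the adjusted p threshold by edgeR. The coefficient of variation of LTED-A was 49.8%, the highest of any gene and group here, so the value rests on which sample is read. It was 1.78 with replicate 1 alone, past both thresholds (adjusted p = 4.59e-05, edgeR), and 0.77 with the sample of replicates 2 and 3 alone, not called. In each of these fits the variant has 1 sample, which is assumed to vary like the other groups.

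NSD3 and DDHD2, neighbours that overlap, had nearly the same values in both SUM44 variants. NSD3 was at 1334, 1428 and 1370 CPM in SUM44F, at 1865 and 1754 CPM in LTED-A, and at 1879, 1802 and 1789 CPM in LTED-B. DDHD2 was at 486.6, 499.4 and 513.4 CPM in SUM44F, at 614.4 and 730.6 CPM in LTED-A, and at 710.0, 669.7 and 652.0 CPM in LTED-B. Both genes stood above SUM44F in every variant sample, with log2 fold changes of 0.40 (NSD3, both variants), 0.43 (DDHD2, LTED-A) and 0.44 (DDHD2, LTED-B), and adjusted p between 0.00352 and 0.0207 (edgeR). With SUM44F replicate 1 left out, these values ran from 0.37 to 0.42. Their adjusted p then ran from 0.0188 (DDHD2, LTED-B) to 0.0826 (NSD3, LTED-A, edgeR). Without replicate 1 of LTED-A, DDHD2 had 0.59 there (adjusted p = 0.000963, edgeR) and passed both thresholds, and with replicate 1 alone it had 0.30 and was not called. The sample left in each case is again assumed to vary like the other groups.

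FADD was at 112.4, 107.0 and 93.8 CPM in SUM44F and at 144.2, 151.1 and 155.8 CPM in SUM44 LTED-B. The LTED-B libraries all lay above SUM44F, with a log2 fold change of 0.53 ± 0.088 (SE, adjusted p = 0.000652, edgeR), past the p threshold and under 1.5-fold. In LTED-A, at 107.6 and 125.8 CPM, FADD overlapped SUM44F. LSM1 also stood above SUM44F in every LTED-B library, with 0.35 (adjusted p = 0.0127, edgeR), not past the p threshold. In LTED-A it had 0.00, from samples at 232.7 and 297.3 CPM on either side of SUM44F, at 248.8 to 274.5 CPM. ASH2L and BAG4 had 0.24 and 0.30 in LTED-A and 0.38 and 0.29 in LTED-B. CTTN had 0.10 and 0.01 and PPFIA1 0.05 and 0.21, all held within 1.5-fold. In SUM44 the members of the 8p11 segment thus had positive log2 fold changes throughout, apart from LSM1 in LTED-A, and only ANO1 passed both thresholds, in LTED-B.

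SUM44PE was not selected for growth without estrogen, and it differs from SUM44F, which was made from it, by a change of medium. Of the 10 genes, 0 were called (5.57% of all genes tested) and 8 were held (40.8% of all genes). By edgeR, 2 genes, DDHD2 and ANO1, had an unadjusted p under 0.05, again without the share over all genes. DESeq2 called 0 of the 10, beside 1716 of all 27457 genes tested. ANO1 was at 1.11, 1.18 and 1.06 CPM in SUM44PE, below all SUM44F libraries, with a log2 fold change of -0.70 ± 0.17 (SE, adjusted p = 0.00907, edgeR). ZNF703 was at 226.0, 230.2 and 253.1 CPM in SUM44PE, also just below SUM44F, with -0.30 ± 0.20 (adjusted p = 0.337, edgeR). These were the genes not held, and the 8 others lay between -0.27 (DDHD2) and 0.09 (ASH2L). ANO1 thus had -0.70 in SUM44PE and 2.18 in SUM44 LTED-B, both against the same SUM44F libraries.

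Whether the variants of 1 line differed from each other was tested next. Among the 4 MM134 variants, 2 of 10 genes differed more than 1.5-fold (19.6% of all genes tested): ANO1, with a range of 2.22 in log2 fold change between LTED-E and LTED-D (adjusted p = 9.14e-16), and ZNF703, with a range of 1.19 between LTED-B and LTED-E (adjusted p = 3.60e-10, edgeR). CTTN (0.46) and LSM1 (0.43) had the next widest ranges, and BAG4 the narrowest (0.11). Between SUM44 LTED-A and LTED-B, 1 of 10 genes was called (7.42% of all genes tested). It was ANO1, lower in LTED-A by a log2 fold change of -2.38 ± 0.20 (SE, adjusted p = 1.41e-05, edgeR). In order of group means, ANO1 ran from MM134 LTED-D (58.5 CPM) through LTED-B (55.8), LTED-A (46.2), parental (15.9) and LTED-E (12.6) to SUM44 LTED-B (8.23), SUM44F (1.82), SUM44 LTED-A (1.60) and SUM44PE (1.12 CPM). Only MM134 LTED-D with LTED-B and SUM44F with SUM44 LTED-A overlapped among neighbours in that order.

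The level in each cell line was compared between the parental cells, MM134 against SUM44F. Of the 10 genes, 6 were called (38.1% of all genes tested) and 3 were held within 1.5-fold (18.8% of all genes). All 4 genes of 11q13 were higher in MM134, by log2 fold changes of 3.16 ± 0.10 (ANO1, 8.92-fold), 1.26 ± 0.037 (PPFIA1, 2.39-fold), 1.14 ± 0.052 (CTTN, 2.20-fold) and 0.95 ± 0.057 (FADD, 1.94-fold), with adjusted p of 1.81e-13 or less by edgeR. At 8p11, ZNF703 and DDHD2 were lower in MM134, by -1.87 ± 0.17 (adjusted p = 5.17e-10) and -0.72 ± 0.052 (adjusted p = 7.45e-12, edgeR). NSD3 (-0.09), LSM1 (-0.14) and BAG4 (-0.21) were the genes held, and ASH2L had 0.46 ± 0.067 (adjusted p = 1.74e-06, edgeR), under the fold threshold. The median size over the 10 genes was 0.84, beside 0.71 over all genes tested.

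The samples behind the 11q13 difference did not overlap. PPFIA1 was at 726.2, 690.1 and 690.7 CPM in MM134 parental cells and at 295.4, 303.6 and 283.8 CPM in SUM44F. CTTN was at 827.0, 837.0 and 729.8 CPM in SUM44F, under its lowest MM134 parental library at 1728 CPM. With SUM44F replicate 1 left out the ANO1 difference was 3.30. With SUM44PE in place of SUM44F, DDHD2 had -0.46 and was no longer called, and 5 genes were held.

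In LTED cells the same contrast, the mean of the 4 MM134 variants against the mean of the 2 SUM44 variants, called 7 of 10 genes (38.7% of all genes tested). The 11q13 genes were again higher in MM134, with log2 fold changes of 3.39 (ANO1), 1.23 (CTTN), 1.17 (PPFIA1) and 0.72 (FADD). ZNF703 (-2.79), DDHD2 (-1.06) and NSD3 (-0.63) were lower in MM134. BAG4 (-0.47), LSM1 (-0.22) and ASH2L (-0.14) were held within 1.5-fold. These means hide the variants' own differences in ANO1, whose MM134 LTED-E libraries at 12 to 13.1 CPM were nearer to SUM44 LTED-B at 8.09 to 8.45 CPM than to the other MM134 variants.

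**Figure D3:**
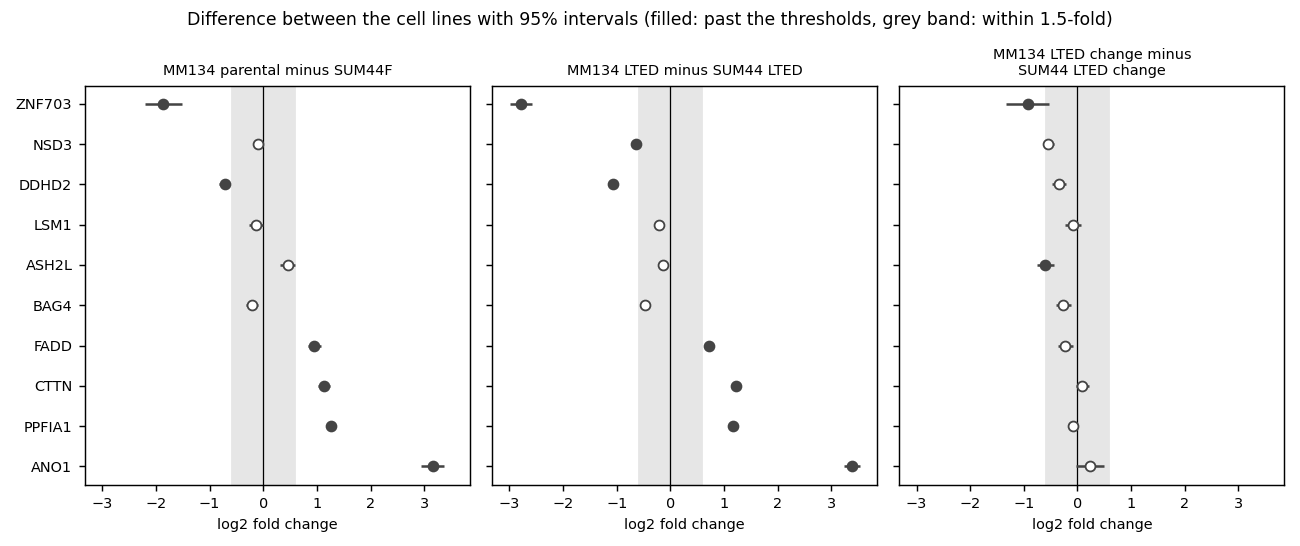
Log2 fold change (x axis) of each gene (y axis) with 95% intervals for MM134 parental cells against SUM44F, MM134 LTED variants against SUM44 LTED variants, and the LTED change in MM134 minus that in SUM44. Filled points passed both thresholds and the grey band is 1.5-fold either way. The 4 genes of 11q13 lie between 0.72 and 3.39 in the first pair of panels, and ZNF703 at -1.87 and -2.79.

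The change with long-term deprivation was then compared between the lines, as the average change in MM134 less the average change in SUM44. Of the 10 genes, 2 were called (21.0% of all genes tested), both lower in MM134. ZNF703 had a difference of -0.92 ± 0.20 (SE, adjusted p = 0.000341) and ASH2L of -0.60 ± 0.080 (adjusted p = 8.44e-07, edgeR). ASH2L stood in the MM134 variants at 290.2 to 377.8 CPM against 377.3 to 414.9 CPM, and in SUM44 it stood at 335.9 to 393.5 CPM in the variants against 259.9 to 316.5 CPM in SUM44F. NSD3 had -0.54 ± 0.049 (adjusted p = 1.05e-09, edgeR), short of the fold threshold. With RLE size factors, and with DESeq2, it had -0.59 and was called as well. Without SUM44F replicate 1 the ZNF703 difference was -0.91 with an adjusted p of 0.00119 (edgeR) and was no longer called, likewise without MM134 parental replicate 2 (-0.90, adjusted p = 0.00114). Without SUM44F replicate 3 neither gene was called (ZNF703 -0.86, ASH2L -0.54). The 3 libraries with COL3A1 above 5 CPM were left out in an alternative chosen after seeing the data, which called ASH2L (-0.68) and not ZNF703 (-0.98, adjusted p = 0.00109, edgeR). For ANO1 the difference was 0.23 ± 0.12 (adjusted p = 0.136, edgeR), a mean over variants that rose and variants that did not. In this difference ANO1 was held within 1.5-fold, as were DDHD2 (-0.34), BAG4 (-0.26), FADD (-0.23), PPFIA1 (-0.09), LSM1 (-0.08) and CTTN (0.09).

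Genes lying between and beside the members were read for the same comparisons. Within the 11q13 interval from ANO1 to CTTN, 7 genes had a mean of at least 1 CPM, and all 7 were called higher in MM134 parental cells than in SUM44F, with a median log2 fold change of 1.27. The 3 that are not members were long noncoding RNAs annotated on the strand opposite to FADD, PPFIA1 and CTTN and overlapping them, at 1.27, 1.31 and 1.31, and their reads may be shared with those genes. In the 2 Mb before the interval, which hold CCND1, 6 of 22 genes were higher and 10 lower (median -0.52), and in the 2 Mb after it 2 of 23 were higher and 5 lower (median -0.32). Of all 17068 genes at 1 CPM or more, 26.6% were higher and 23.5% lower.

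Within the 8p11 interval from ZNF703 to NSD3, 1 of 21 genes was called higher in MM134 and 5 were called lower, with a median of -0.21, or -0.28 over the 15 genes that are not members. Just beyond NSD3 the values were of the other sign: in the 2 Mb after the interval 8 of 14 genes were higher and 0 lower, with a median of 0.79. FGFR1 lay there. In the MM134 variants the 15 other genes of the 8p11 interval had medians of 0.31 (LTED-A), 0.35 (-B), 0.20 (-D) and 0.34 (-E) against parental cells, with 14, 13, 9 and 15 of them above 0. In the SUM44 variants (LTED-A first) those medians stood at 0.07 and 0.04. Neighbouring genes are not independent of each other, and the share of all genes above 0 was not counted, so these values describe position only. Over all genes of at least 1 CPM, the medians in the MM134 variants were 0.010, 0.019, 0.012 and 0.021. In the SUM44 variants the medians over all genes were 0.034 and 0.056. The 6 members had medians of 0.02, -0.18, 0.00 and 0.12 in the MM134 variants and of 0.35 and 0.39 in the SUM44 variants.

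**Figure D4:**
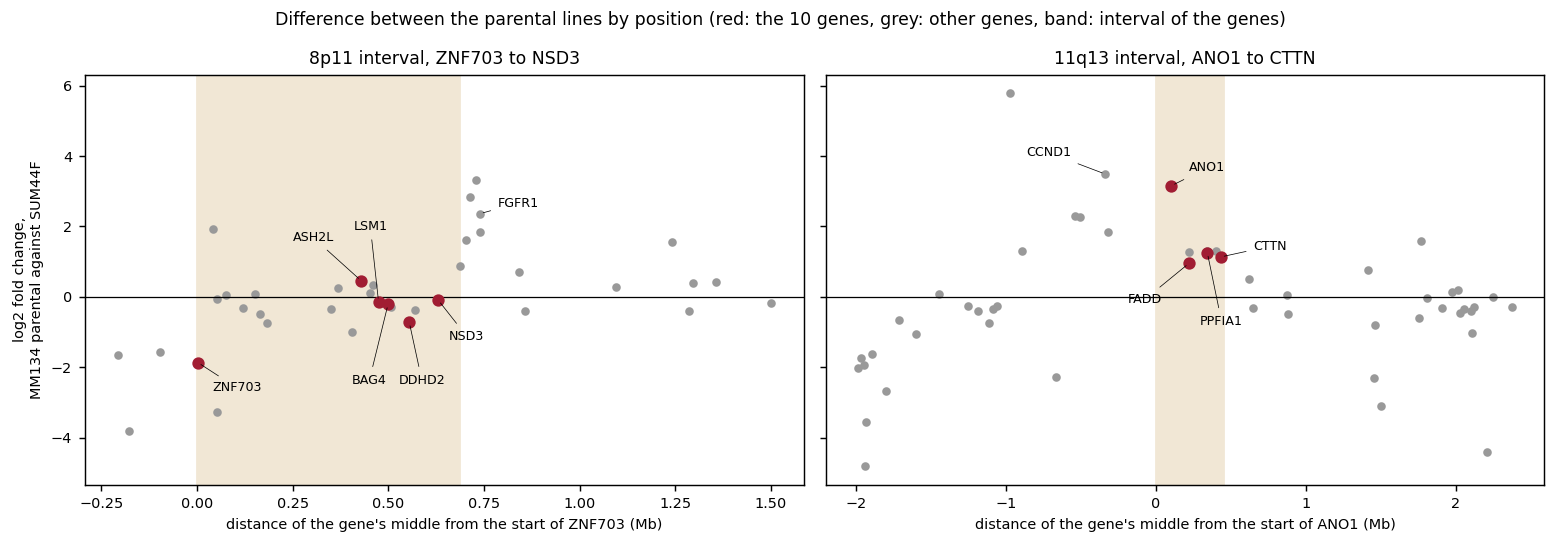
Log2 fold change of MM134 parental cells against SUM44F (y axis) by distance of each gene's middle from the start of ZNF703 (left) or ANO1 (right) in Mb (x axis), for genes of at least 1 CPM. Red points are the 10 genes, grey points are other genes, and the band is the interval the members span. All points in the 11q13 band lie above 0, and most in the 8p11 band lie near or below 0 with FGFR1 to the right of it at 2.36.

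Other known genes of these amplicons were counted from lists of 18 genes of 8p11-p12 and 17 of 11q13. FGFR1 was at 2274 ± 30.8 CPM (SD, n = 3) in MM134 parental cells and 442.6 ± 34.7 CPM (SD, n = 3) in SUM44F, a log2 fold change of 2.36. CCND1 was at 5263 ± 143.8 and 469.3 ± 45.9 CPM (SD, n = 3 each), a log2 fold change of 3.49. Between the parental lines, 4 of the 18 tested genes of 8p11-p12 were higher in MM134 and 2 lower, beside 38.1% of all genes called in either direction. The largest were KAT6A (2.55), FGFR1 (2.36), LETM2 (1.63) and PLEKHA2 (1.55), apart from ADRB3, which was called lower on 1 or 2 counts in each MM134 parental library against 12 to 20 in SUM44F and is given no fold. At 11q13, 4 of 13 tested genes were higher and 4 lower, led by MRGPRF (5.79), CCND1 (3.49), NADSYN1 (-3.11), DHCR7 (-2.30) and MYEOV (-2.28). The fibroblast growth factor genes FGF3, FGF4 and FGF19, and GAL, did not pass the filter on low counts. The listed genes of 11q13 thus went both ways, while FADD, CTTN, PPFIA1 and ANO1 were all higher in MM134.

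Both flanking oncogenes changed in several variants. FGFR1 fell in MM134 LTED-A (-0.81), LTED-B (-1.07) and LTED-E (-0.73) and had -0.47 in LTED-D, under the fold threshold. CCND1 fell in MM134 LTED-A (-1.05) and LTED-B (-0.69), and rose in SUM44 LTED-A (1.79), SUM44 LTED-B (1.65) and SUM44PE (0.70). EIF4EBP1, a repressor of cap-dependent translation, rose in all 6 variants, by 0.64 to 0.86 in MM134 and by 1.89 and 2.07 in SUM44. DHCR7, the last enzyme of cholesterol synthesis, rose in all 6 as well, by 0.99 to 1.78 in MM134 and by 1.35 and 1.19 in SUM44. Of the 17 tested genes of 8p11-p12, 5 rose and 2 fell in MM134 LTED-A, 2 and 3 in LTED-B, 5 and 1 in LTED-D, and 4 and 1 in LTED-E. Over all genes tested, 20.3%, 15.9%, 17.6% and 19.0% were called in these variants.

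Further listed genes moved the same way in several variants. In MM134, PLPP5 (0.80 to 1.24), LRP5 (0.68 to 1.06), a WNT co-receptor, and MYEOV (1.34 to 1.73) rose in all 4 variants, and MRGPRF fell in all 4 (-1.97 to -1.17). ADAM9, a membrane protease, and ADGRA2 rose in all but LTED-B. TACC1, a centrosomal protein gene just beyond FGFR1, fell in the MM134 variants other than LTED-E (-0.93, -1.81 and -1.25) and in both SUM44 variants (-3.96 and -5.54). PLEKHA2 fell in both SUM44 variants (-2.36 and -0.88). In SUM44 LTED-A, 1 of 18 genes of 8p11-p12 rose and 2 fell, and in LTED-B 3 rose and 2 fell, beside 13.7% and 17.3% of all genes called. Of the 13 tested genes of 11q13, 4 rose and 2 fell in MM134 LTED-A, 3 and 2 in LTED-B, 3 and 1 in LTED-D, 4 and 1 in LTED-E (the shares over all genes are those above), 2 and 0 in SUM44 LTED-A and 3 and 0 in SUM44 LTED-B. In SUM44PE, 0 of the 8p11-p12 list and 2 of the 11q13 list, CCND1 and MYEOV, were called, beside 5.57% of all genes.

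The genes whose pattern was most like that of each member were found from the correlation of log2(CPM + 1) over the 9 group means, each centred on the mean of its cell line. These r values describe 9 points that share libraries and are given without a test. BAG4 was most like MYBBP1A (0.99), SRP72 (0.98) and STT3B (0.98), FADD like PPIA (0.99), PSMB2 (0.98) and STIP1 (0.98), and NSD3 like MPHOSPH9, BRI3BP and FIGNL1 (0.98 each). ZNF703 was most like PPP1R15B (0.97), LRRC37A9P (0.96) and HGD (0.96), and DDHD2 like SVIL-AS1 (0.97), KCTD1 (0.96) and YWHAZ (0.96). LSM1 was most like ALAS1, NDUFS3 and PSMD1, and ASH2L like PIF1, UHRF1 and SPC25 (0.96 each). PPFIA1 was most like SERPINH1 (0.97), MAGOH (0.95) and KARS1 (0.94), CTTN like PRR22 (0.95), ETFA (0.95) and PARP8 (0.93), and ANO1 like DCTN2 (0.97), CCNB3 (0.95) and TMEM225B (0.95). Of the 20 genes most like each member, 1 lay within 5 Mb for BAG4 (MAK16), 1 for CTTN (TPCN2) and 0 for the other 8 members. Of all 17067 genes compared, 0.352% to 1.17% lie within 5 Mb of a given member.

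Across the same 9 centred points, r between pairs of the 8p11 members ran from 0.42 (LSM1 and ASH2L) to 0.82 (ZNF703 and DDHD2, NSD3 and BAG4). At 11q13 it ran from -0.32 between CTTN and ANO1, which bound the interval, to 0.81 between FADD and PPFIA1. The highest r was between genes of different segments, LSM1 and PPFIA1 (0.92), followed by FADD and LSM1 (0.88).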

How the data were processed

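Per the labels, libraries were made from total RNA with a stranded kit. According to the study's methods, the authors mapped reads to hg38 (Ensembl release 82) and ran Salmon 0.6.0 to estimate each gene's counts. The deposited table holds these estimated counts, which are not whole numbers, for 60619 genes in 27 libraries. They were rounded. Symbols and positions came from GENCODE v44 by Ensembl ID, which matched 56434 genes. The 10 members and the gene lists were chosen with earlier results of these data known. All 10 members were tested in every comparison. All are named for the variants against their parental cells and between the cell lines. For SUM44PE and between variants of 1 line only some are named. Listed genes are named where they led the parental difference, or were called in at least 3 MM134 variants or both SUM44 variants. ANO1 and ZNF703 are given most room because they were called.

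Genes were filtered with filterByExpr, scaled by TMM and tested with edgeR 4.0.16 in R 4.3.3 (two-sided quasi-likelihood test, adjusted after Benjamini and Hochberg over all genes), in 1 fit of the MM134 groups (26061 genes), 1 of SUM44F and its variants (26834), 1 with SUM44PE (27457) and 1 of all groups (29608). CPM values used the TMM-scaled totals. The thresholds, 1.5-fold and an adjusted p of 0.001, are the study's. The steps were tested on counts simulated with the same spread for every gene and with planted changes larger than 1.5-fold. That test does not cover values near the thresholds or samples as uneven as those of SUM44 LTED-A. DESeq2 1.42.0, RLE size factors, other filters, other sample sets, a replicate block and leaving out each replicate were tried as alternatives. Replicates 2 and 3 of SUM44 LTED-A had a chi-square per degree of freedom of 0.312, beside 2.35 to 58.1 for the 26 other replicate pairs. Intervals cover the spread between wells of these cultures.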

Additional observations from a re-analysis of the deposited data

Results flagged for a closer look

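The 4 MM134 variants differed from each other in ANO1, by a range of 2.22 in log2 fold change, and in ZNF703, by a range of 1.19, each by edgeR's test among the variants (adjusted p = 9.14e-16 and 3.60e-10). LTED-E had the lowest ANO1 level and the highest ZNF703 level, in 3 of 3 libraries each. The 2 SUM44 variants differed in ANO1 by -2.38 (LTED-A minus LTED-B, adjusted p = 1.41e-05, edgeR). The change with long-term deprivation differed between the cell lines in ZNF703 by -0.92 and in ASH2L by -0.60 (MM134 minus SUM44, adjusted p = 0.000341 and 8.44e-07, edgeR). The causes of these differences were not tested.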

How the results depend on the processing

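Of 1970 values of the 10 genes under alternatives, 1911 kept their sign and their side of the thresholds, 43 changed sign, 7 lost a call and 9 gained one. Those that changed sign were uncalled, at most 0.21 in size, with an adjusted p of 0.0913 or more (edgeR or DESeq2). The cause of the changes was not tested.

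The count of called genes in SUM44 LTED-A became 1 with DESeq2, with no filter on low counts and with SUM44PE added (ZNF703 each time), that in SUM44 LTED-B became 2 with no filter and with parental cells and 1 variant only, and that of the difference in change between the lines became 1 with at least 10 counts in every library (ASH2L at -0.56 lost its call) and, by a choice made after seeing the data, without the 3 libraries with fibroblast collagens. Genes held in SUM44 LTED-B numbered 3 in place of 5 with RLE size factors, DESeq2 and without the 3 libraries, and genes held between the parental lines 5 in place of 3 with SUM44PE in place of SUM44F.

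No pairing of samples by replicate number was seen. The correlation of same-numbered deviations ran from -0.39 to 0.28 (MM134) and from -0.12 to 0.25 (SUM44 without LTED-A). For different-numbered ones it ran from -0.41 to 0.45 (MM134) and from -0.29 to 0.28 (SUM44 without LTED-A). With a replicate block 19 of 20 counts stayed, the other being genes held in SUM44 LTED-B, 3 in place of 5, and BAG4 between the SUM44 variants had -0.015.

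Values that changed sign were LSM1 in SUM44 LTED-A (0.039 with RLE and with DESeq2, 0.015 with no filter, 0.013 with 1 variant only, 0.078 with 3 separate libraries, 0.027 with SUM44PE added, 0.019 without the 3 libraries), CTTN in SUM44 LTED-B (-0.026 with at least 10 counts), PPFIA1 in SUM44PE (0.0010 with RLE, 0.0013 with DESeq2, 0.016 with no filter, 0.0099 with at least 10 counts, 0.015 with only SUM44PE and SUM44F, 0.0033 without the 3 libraries), NSD3 between the SUM44 variants (0.017 with at least 10 counts), DDHD2 there (0.018 with at least 10 counts, 0.048 with 3 separate libraries, 0.0012 with SUM44PE added), BAG4 in MM134 LTED-B (0.043 without the 3 libraries) and LSM1 between the parental lines (0.012 with SUM44PE).

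Leaving out 1 replicate at a time, called genes ranged from 0 to 1 in SUM44 LTED-A and from 0 to 2 for the difference in change, and genes held in SUM44 LTED-B from 2 to 5. Ranges that crossed 0 were BAG4 -0.072 to 0.043 (MM134 LTED-B) and -0.00026 to 0.115 (LTED-E), NSD3 -0.034 to 0.0025 (LTED-E), LSM1 -0.19 to 0.21 and ANO1 -0.38 to 0.033 (SUM44 LTED-A), CTTN -0.045 to 0.053 (SUM44 LTED-B), BAG4 -0.0070 to 0.092 and PPFIA1 -0.025 to 0.034 (SUM44PE), CTTN -0.00076 to 0.131 (difference in change), and, between the SUM44 variants, ZNF703 -0.13 to 0.90, NSD3 -0.032 to 0.026, DDHD2 -0.15 to 0.13, BAG4 -0.066 to 0.094 and CTTN -0.0085 to 0.18.

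For the neighbouring genes, a minimum of 5 CPM moved the 8p11 median to 0.25 in MM134 LTED-A and 0.24 in LTED-D. The mean in place of the median was 0.25, 0.13 and 0.35 at 8p11 in LTED-A, LTED-D and LTED-E, and at 11q13 0.28, 0.15 and 0.34 in LTED-A, LTED-B and LTED-D, 0.56 in SUM44 LTED-B and 1.49 between the parental lines. Genes within 5 Mb among the 20 most alike numbered 0 for BAG4 with Spearman rho or without centring, and for CTTN 0 with rho and 2 without centring. With the longest transcript as length, ranks in MM134 parental cells became 4 (NSD3), 3 (ASH2L), 6 (BAG4) and 5 (FADD), and in SUM44F 7 (ZNF703), 3 (NSD3), 5 (DDHD2), 2 (LSM1), 6 (ASH2L), 4 (BAG4), 8 (FADD) and 1 (CTTN).

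Over all genes, calls fell from 3669 to 2190 in SUM44 LTED-A with 1 variant only, from 1990 to as few as 1104 between the SUM44 variants with 1 replicate left out, and from 11461 to 7280 between LTED cells of the lines with at least 10 counts, where fewer genes were tested. With 2 samples, SUM44 LTED-A limits every comparison it enters.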
